A study of Mus musculus with 8 samples.

Results

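The values of 10 genes of the G1 phase of the cell cycle were read in whisker follicles of mice given the compound E7386 or vehicle. They are the D cyclins Ccnd1, Ccnd2 and Ccnd3, their kinases Cdk4 and Cdk6, the kinase inhibitors Cdkn1b, Cdkn1c and Cdkn2c, and the pocket proteins Rb1 and Rbl1. Their probes were found by gene symbol, through the RefSeq accession of each probe. All 10 had at least 1 probe, out of 37018 genes and unnamed transcripts on the array, and 9 entered the test over 25352 of these. Cdk6 did not, because its only probe cleared background on just 1 of 4 E7386 arrays and 2 of 4 vehicle arrays. Where a gene had several probes, the one with the highest mean over the 8 arrays was used.

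Both groups were female ApcMin/+ mice, which carry 1 truncated copy of Apc in every cell, so no follicle with intact Apc enters the comparison. The 4 E7386 samples came from mice dosed by mouth at 30 mg/kg, with 2 doses a day, in 4 cycles of 5 days on and 2 days off, beginning at 8 weeks of age. The 4 vehicle samples came from mice given vehicle, read here as given on the same schedule, which the labels state with E7386 as the agent. The whiskers' follicles were taken 6 h after the last dose, and each sample went on its own 1-colour array. E7386 is known as an oral compound that disturbs the contact between beta-catenin and CBP, a coactivator, and Ccnd1 is a textbook target of beta-catenin. The comparison therefore asks how the G1 genes differ between the groups, and whether Ccnd2 or Ccnd3 moved the other way from Ccnd1.

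The D cyclins are made in response to growth signals and bind Cdk4 or Cdk6. The pair phosphorylates Rb1 and its relatives, which releases E2F factors to switch on genes for DNA replication. Inhibitors of the INK4 class, such as the product of Cdkn2c, block Cdk4 and Cdk6, while those of the Cip/Kip class, p27 from Cdkn1b and p57 from Cdkn1c, act on the later cyclin E and A kinases and also bind the D cyclin pairs. In hair follicles, dividing matrix cells at the base feed the growing shaft, and stem and germ cells pass in and out of rest.

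All 8 arrays lie on 1 slide with 1 scan, with E7386 in row 2 and vehicle in row 1, so row and treatment cannot be told apart. The replicate number is the slide column in both groups. The share of transcript spots well above background was 61.5% to 61.9% on E7386 arrays and 62.2% to 64.7% on vehicle arrays. Of the follicle keratinocyte markers, 9 of 10 were tested and all 9 were well above background on every array. Their mean signal was 5.77 to 5.97 on E7386 arrays and 5.42 to 6.00 on vehicle arrays. Skeletal muscle of the whisker pad varied most. The mean of its 12 markers was 1.78, 2.54, 4.57 and 4.66 on the E7386 arrays and 1.50, 3.83, 4.36 and 4.57 on the vehicle arrays, so E7386 replicates 1 and 2 and vehicle replicate 1 held little muscle signal. The mean of 8 dermal papilla and fibroblast markers was 2.16 to 2.38 on E7386 arrays and 2.41 to 2.74 on vehicle arrays, without overlap. Of the 8, 6 had lower and 2 had higher means with E7386, where 48% of all genes had lower means. By limma 0 passed the test, and each of the 8 read alone overlapped between the groups. Corin, with a log2 change of -1.36, was well above background on 1 of 4 E7386 and 4 of 4 vehicle arrays. The gap between the groups thus rests in part on signals near background. The part of this list in the results below was not tested. The ranges of the fat, sebaceous gland, melanocyte, endothelium, T cell, macrophage and Schwann cell lists overlapped between the groups, and 1 sebaceous gland marker was called higher. All signals here are log2 of the processed signal minus the 75th percentile of the array, so 0 is the level of that percentile. In whole tissue, fewer cells of a type and less RNA per cell cannot be told apart. Whether each sample is a mouse of its own is not given in the labels, so a p-value here speaks for the spread among these 8 samples and no further.

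Across all genes tested, 191 were higher and 93 lower with E7386 by limma (4 arrays a group, p adjusted by Benjamini-Hochberg, threshold 0.05), which is 1.12% of them. With arrays scaled by their median, the split was 135 higher and 123 lower. Among the 9 tested members, 0 were higher and 1, Ccnd1, was lower, with limma. At an unadjusted p under 0.05 there were 5 members, against 15.2% of all genes. In 3 members the arrays of the groups did not overlap, against 10.5% of all genes: Ccnd1 and Ccnd2 were lower and Cdkn1b higher on every E7386 array. The median log2 change of the 9 members was -0.08, and that of all genes was 0.0088. Since the members were chosen with earlier results of these data known, the shares beside them are a description and not a test.

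**Figure D1:**
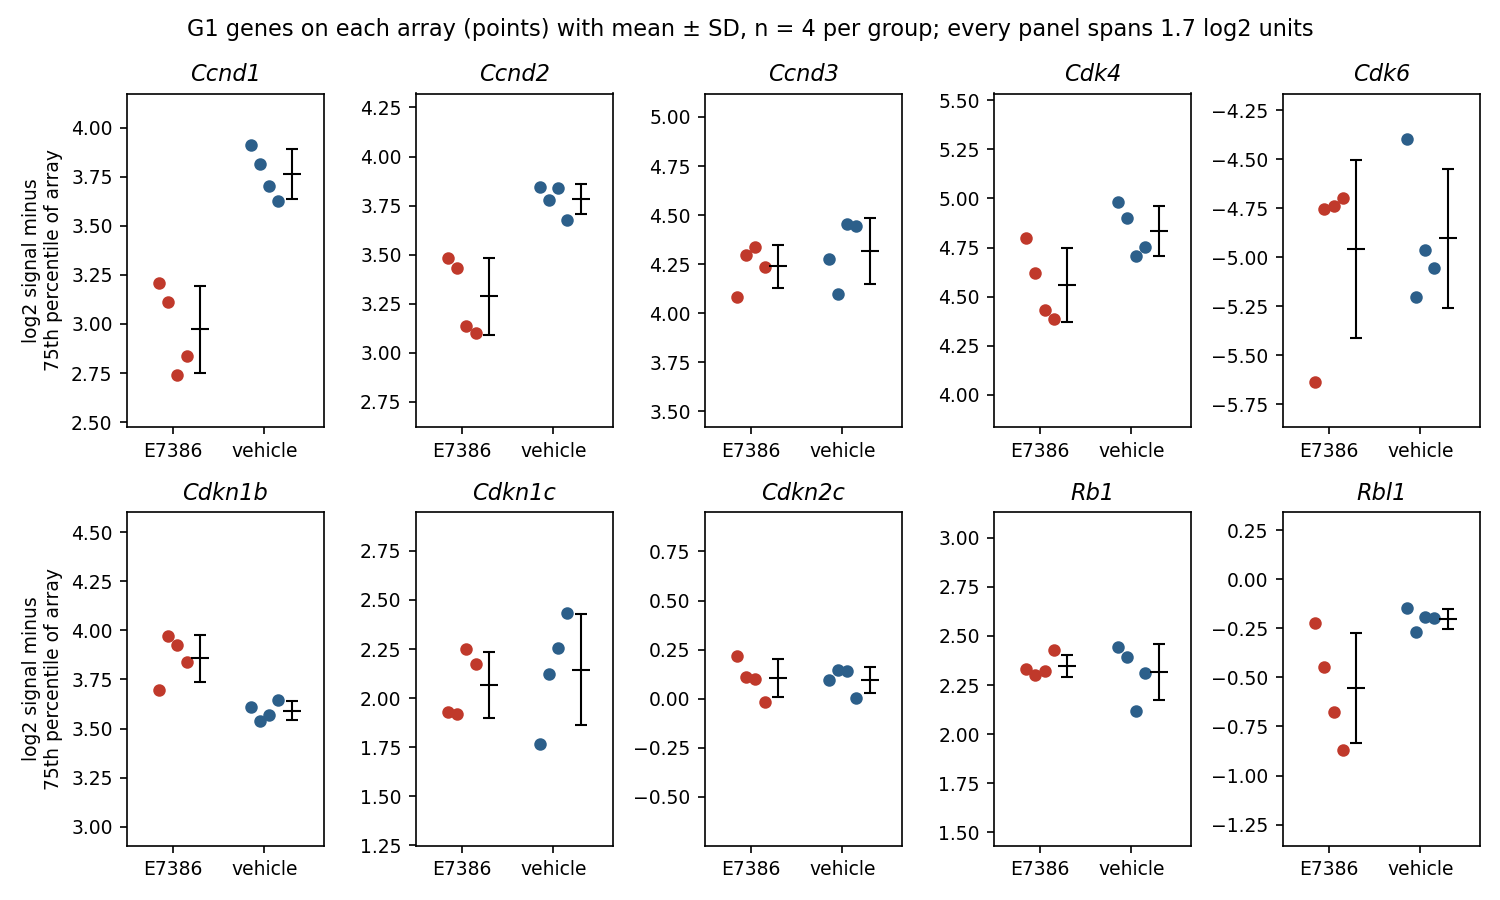
Normalised log2 signal of the 10 genes on each array, E7386 at the left and vehicle at the right of each panel, with the mean and SD of 4 arrays as a bar. Ccnd1 and Ccnd2 lie lower on all 4 E7386 arrays and Cdkn1b higher, while the groups overlap for the other genes; Cdk6 lies far below the 75th percentile of the arrays.

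Promoter windows from RefSeq (GRCm38.p6, 300 bases around a gene's start) matched 6 of the 10 genes. Ccnd1, Ccnd2, Cdkn1c and Rb1 had no window. Those of Cdk4, Ccnd3, Cdkn1b and Rbl1 are shown, so that letters known to be bound by cell cycle and Wnt regulators can be read beside the changes of these genes. Capitals mark motif letters on either strand. The motifs searched were E2F (TTTCGCGC, TTTGGCGC, TTTCCCGC or TTTGCCGC), TCF/LEF (CTTTG followed by AA, AT, TA or TT), FOXO (GTAAACA) and the E-box of MYC and its relatives (CACGTG), and none of the matches overlap one another.
Cdk4, chr10:127063285-127063584, plus strand: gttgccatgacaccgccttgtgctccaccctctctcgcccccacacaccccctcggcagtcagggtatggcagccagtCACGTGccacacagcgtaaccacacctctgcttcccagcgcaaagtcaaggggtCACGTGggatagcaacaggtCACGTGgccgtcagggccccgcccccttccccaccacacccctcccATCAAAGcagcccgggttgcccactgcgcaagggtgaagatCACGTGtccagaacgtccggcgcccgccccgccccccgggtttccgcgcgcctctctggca
Ccnd3, chr17:47504801-47505100, plus strand: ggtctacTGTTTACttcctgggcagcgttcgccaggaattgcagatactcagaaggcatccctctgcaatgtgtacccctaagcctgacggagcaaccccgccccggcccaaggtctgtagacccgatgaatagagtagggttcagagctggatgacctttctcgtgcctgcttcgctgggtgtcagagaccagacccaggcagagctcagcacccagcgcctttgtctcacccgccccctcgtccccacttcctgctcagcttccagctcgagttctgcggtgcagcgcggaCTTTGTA
Ccnd3, chr17:47593217-47593516, plus strand: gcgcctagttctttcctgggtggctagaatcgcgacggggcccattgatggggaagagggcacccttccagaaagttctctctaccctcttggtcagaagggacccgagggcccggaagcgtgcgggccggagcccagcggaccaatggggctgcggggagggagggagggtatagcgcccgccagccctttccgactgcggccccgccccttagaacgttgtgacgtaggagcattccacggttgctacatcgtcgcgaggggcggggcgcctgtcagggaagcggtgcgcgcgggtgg
Cdkn1b, chr6:134920151-134920450, plus strand: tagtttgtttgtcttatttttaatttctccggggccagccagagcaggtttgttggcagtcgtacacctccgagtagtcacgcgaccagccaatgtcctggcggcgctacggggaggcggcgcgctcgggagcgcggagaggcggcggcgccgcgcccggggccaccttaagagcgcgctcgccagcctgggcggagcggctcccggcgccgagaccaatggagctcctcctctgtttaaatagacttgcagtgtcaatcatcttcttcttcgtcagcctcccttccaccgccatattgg
Rbl1, chr2:157204485-157204784, minus strand: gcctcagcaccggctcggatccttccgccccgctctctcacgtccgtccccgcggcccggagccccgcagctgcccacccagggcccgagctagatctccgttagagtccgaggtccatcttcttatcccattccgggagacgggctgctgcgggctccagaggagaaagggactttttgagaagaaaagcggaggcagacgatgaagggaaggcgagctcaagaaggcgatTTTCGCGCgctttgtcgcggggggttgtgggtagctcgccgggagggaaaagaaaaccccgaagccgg
Rbl1 had an E2F match at -18 to -11 relative to its start, which 2.26% of all 32851 windows hold. Cdk4 had 4 E-boxes, where 7.15% of windows hold at least 1, and a TCF/LEF match at -52 to -46, where 16.9% hold one. The first Ccnd3 window ended in a TCF/LEF match and held a FOXO match at -243 to -237, found in 3.65% of windows. The second Ccnd3 window and that of Cdkn1b held none of these letters. Of the windows not shown, that of Cdk6 and 1 of those of Cdkn2c each held an E-box. A match is a description of the letters and not a binding site.

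Ccnd1, which encodes cyclin D1, was the D cyclin called lower in the main fit. Its signal was 3.21, 3.11, 2.74 and 2.84 on E7386 arrays 1 to 4 and 3.91, 3.82, 3.70 and 3.62 on vehicle arrays 1 to 4. The highest E7386 array lay below the lowest vehicle array, and E7386 replicates 3 and 4 were the lowest of all. The mean was 2.97 ± 0.22 with E7386 and 3.76 ± 0.13 with vehicle (SD, n = 4 each), 1.73-fold lower, with a log2 change of -0.79 (SE 0.12, 95% interval -1.08 to -0.51, limma adjusted p = 0.0294). By its p-value Ccnd1 ranked 174 of the 25352 genes. The call was lost without any 1 of 7 arrays, with adjusted p-values of 0.0787, 0.0837, 0.0784 and 0.0514 without vehicle replicates 1, 2, 3 and 4, and of 0.0578, 0.0873 and 0.0974 without E7386 replicates 2, 3 and 4. It held without E7386 replicate 1 (adjusted p = 0.0306), and the change stayed between -0.87 and -0.71 in these 8 fits. It was also lost with the slide column, which is the replicate number, as a block (adjusted p = 0.0593) and with no filter on dim probes (adjusted p = 0.0633).

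Ccnd2, which encodes cyclin D2, went the same way as Ccnd1 by a smaller amount. Its signal was 3.48, 3.43, 3.14 and 3.10 on E7386 arrays 1 to 4 and 3.84, 3.78, 3.84 and 3.68 on vehicle arrays 1 to 4. The groups did not overlap, and E7386 replicates 3 and 4 were again the lowest. The log2 change was -0.50 (SE 0.11, 95% interval -0.74 to -0.25), which did not pass over all genes (limma adjusted p = 0.0838). It passed with the muscle list mean as a covariate (adjusted p = 0.0291), with trend and robust variance (0.0472) and with normexp on median signals (0.0464). Over all genes these settings called 596, 413 and 388 genes, in that order, against 284 in the main fit. The adjusted p over all 21 alternatives ran from 0.0291 to 0.233, with a change of -0.65 to -0.43.

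Ccnd3, which encodes cyclin D3, showed no difference beyond the spread. Its brighter probe was at 4.08, 4.30, 4.34 and 4.24 on E7386 arrays 1 to 4 and at 4.28, 4.10, 4.45 and 4.44 on vehicle arrays 1 to 4. The lowest array of all was an E7386 one and the highest a vehicle one. The log2 change was -0.08 (SE 0.10, 95% interval -0.32 to 0.16, limma adjusted p = 0.777), and the other probe gave -0.12 (95% interval -0.32 to 0.09). The upper bound for the brighter probe corresponds to 1.12-fold higher with E7386, so a rise of Ccnd3 above that size lies outside the interval. No rise was measured for either of the other D cyclins beside the fall of Ccnd1: the interval of Ccnd2 lies wholly below 0, and that of Ccnd3 spans it. Signals of different probes cannot be added, so a total of D cyclin RNA is not given.

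In the main setting, the measured changes of Ccnd2 and Ccnd3 were smaller than that of Ccnd1. The signal of Ccnd2 minus that of Ccnd1 on the same array was 0.28, 0.32, 0.40 and 0.26 with E7386 and -0.07, -0.04, 0.14 and 0.05 with vehicle. This difference was larger on every E7386 array, by 0.30 (95% interval 0.16 to 0.43, exact two-sided permutation p = 0.0286). The signal of Ccnd3 minus that of Ccnd1 was 0.88, 1.19, 1.60 and 1.40 with E7386 and 0.37, 0.28, 0.75 and 0.82 with vehicle. It was larger by 0.71 with E7386 (95% interval 0.21 to 1.21, exact two-sided permutation p = 0.0286), again without overlap. No smaller p is possible with 4 arrays against 4, and adjusting over these 2 differences left it at 0.0286. The p of the Ccnd3 difference was 0.0571 without vehicle replicate 1, 2, 3 or 4 or without E7386 replicate 3, and that of the Ccnd2 difference was 0.0571 without E7386 replicate 3.

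**Figure D2:**
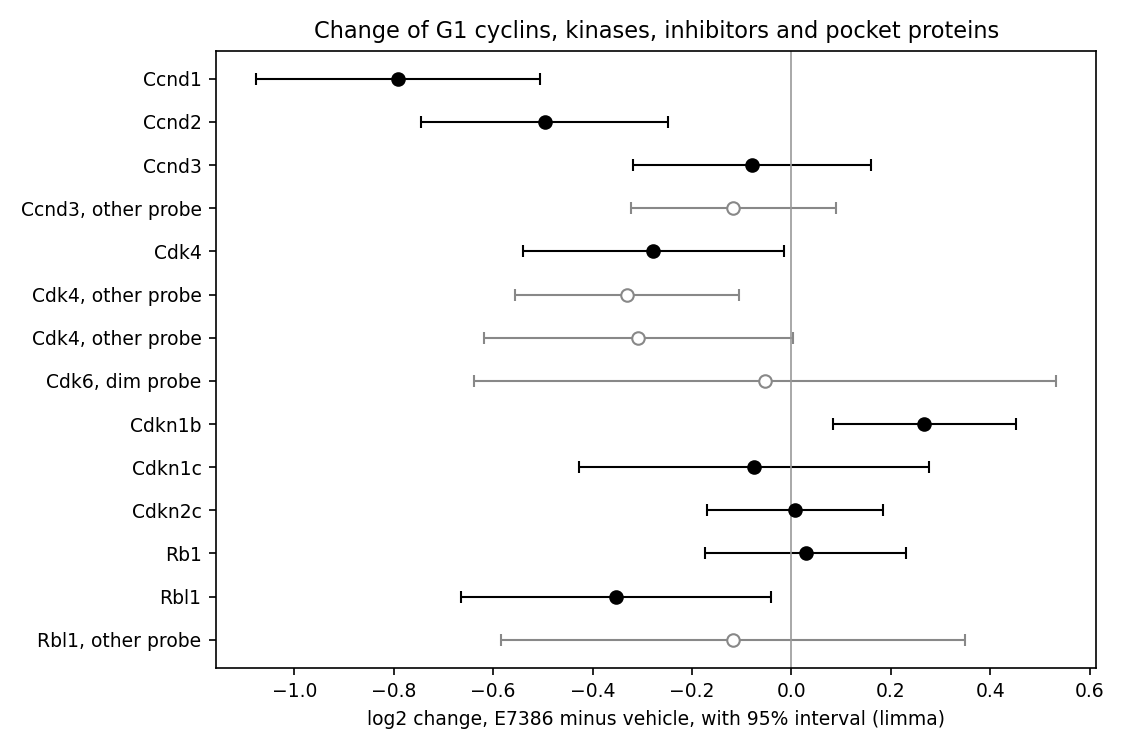
Log2 change, E7386 minus vehicle, with the 95% interval from limma, for the probe used (filled) and the other probes (open, for Cdk6 a probe too dim to be tested). For the probe used, Ccnd1, Ccnd2, Cdk4 and Rbl1 have intervals below 0, Cdkn1b has one above 0, and the Ccnd3 interval runs from -0.32 to 0.16.

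Inside each group, Ccnd1 was highest on the arrays with the least muscle signal. With E7386, Ccnd1 was 3.21 and 3.11 on the arrays with little muscle signal and 2.74 and 2.84 on the other 2. With vehicle it was 3.91 on the array with little muscle signal and 3.62 to 3.82 on the other 3. With the muscle list mean as a covariate, the change of Ccnd1 was -0.81 (limma adjusted p = 0.00445) and that of Ccnd3 was -0.07 (adjusted p = 0.737). Without the 3 arrays of low muscle signal, a choice made after seeing the data, Ccnd1 differed by -0.93 (adjusted p = 0.0653) and Ccnd2 by -0.65 (adjusted p = 0.107). That fit called 0 members and 67 of 24925 genes by limma. It had 5 members at an unadjusted p under 0.05, and the share of all genes at that p was not counted there.

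**Figure D3:**
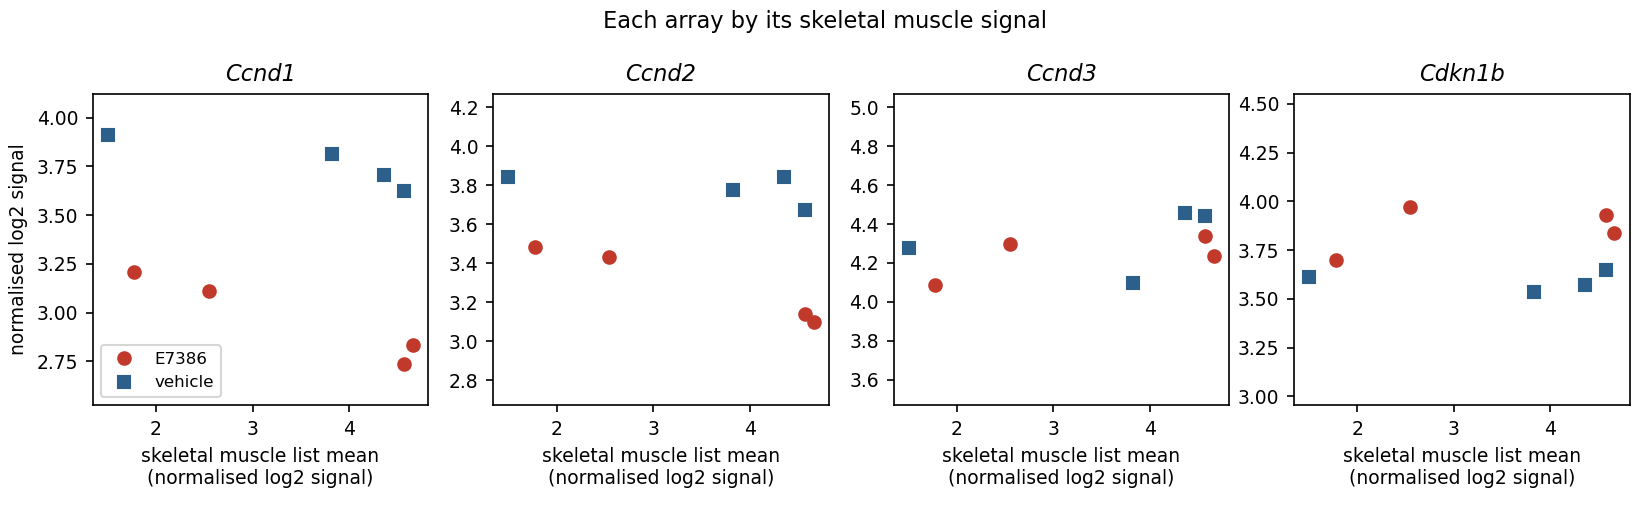
Normalised log2 signal of Ccnd1, Ccnd2, Ccnd3 and Cdkn1b on each array against the mean of 12 skeletal muscle markers on the same array, E7386 as red circles and vehicle as blue squares. E7386 arrays lie below vehicle arrays for Ccnd1 at low and at high muscle signal, and for Cdkn1b they lie above.

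Of the kinases, Cdk4 was bright and slightly lower with E7386 on all of its 3 probes. The brightest was at 4.80, 4.62, 4.43 and 4.39 on E7386 arrays 1 to 4 and at 4.98, 4.90, 4.71 and 4.75 on vehicle arrays 1 to 4. E7386 replicate 1 lay among the vehicle arrays, so the groups overlap. The log2 change was -0.28 (SE 0.11, 95% interval -0.54 to -0.02) and did not pass over all genes (limma adjusted p = 0.301). The other probes gave -0.33, without overlap, and -0.31. Cdk6 had signals of -5.64 to -4.70 with E7386 and -5.20 to -4.40 with vehicle, at or near background, and no fold is given.

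Of the 3 inhibitors among the members, Cdkn1b was the one whose groups did not overlap. Its product p27 holds cyclin E and A kinases inactive in resting cells. The signal was 3.70, 3.97, 3.93 and 3.84 on E7386 arrays 1 to 4 and 3.61, 3.54, 3.57 and 3.65 on vehicle arrays 1 to 4, so the lowest E7386 array lay just above the highest vehicle array. The log2 change was 0.27 (SE 0.08, 95% interval 0.08 to 0.45), or 1.20-fold, and did not pass over all genes (limma adjusted p = 0.177, and 0.116 to 0.394 over 21 alternatives). Higher values on every E7386 array occurred in 4.82% of all genes. Cdkn1c, whose product p57 acts like p27 and is imprinted, was at 1.92 to 2.25 with E7386 and 1.76 to 2.43 with vehicle, with a change of -0.08 (95% interval -0.43 to 0.28, adjusted p = 0.871). Cdkn2c, which encodes the INK4 inhibitor p18, was at -0.02 to 0.22 with E7386 and 0.00 to 0.15 with vehicle. Its change was 0.01 (95% interval -0.17 to 0.18), and -0.07 with arrays scaled by their median.

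The pocket proteins hold E2F factors in check, and neither Rbl1 nor Rb1 passed the test. Rbl1, which encodes p107 and is itself a known E2F target, was at -0.22, -0.45, -0.68 and -0.87 on E7386 arrays 1 to 4 and at -0.14, -0.27, -0.19 and -0.20 on vehicle arrays 1 to 4. Only E7386 replicate 1 lay among the vehicle arrays, and the SD was 0.28 with E7386 and 0.05 with vehicle. The change was -0.35 (SE 0.14, 95% interval -0.66 to -0.04, limma adjusted p = 0.274), with -0.12 on its other, dimmer probe and -0.23 with both averaged (adjusted p = 0.516). Rb1, measured by 10 spots of 1 probe on each array, was at 2.30 to 2.43 with E7386 and 2.12 to 2.44 with vehicle. Its change was 0.03 (95% interval -0.17 to 0.23, adjusted p = 0.92), and -0.05 with arrays scaled by their median.

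The other genes of the route from G1 to S phase were read from 7 lists, chosen with earlier results of these data known. In cyclins E and A and their kinases, 7 of 9 genes were tested, and 0 rose and 0 fell by limma. Of the 7, 1 had an unadjusted p under 0.05, beside 15.2% of all genes, and 6 had lower means, beside 48%. Ccne1, which encodes cyclin E1 and is an E2F target, had 0.83, 0.46, 0.23 and 0.21 on E7386 arrays 1 to 4 and 1.31, 1.18, 0.90 and 0.71 on vehicle arrays 1 to 4. E7386 replicate 1 lay among the vehicle arrays, and the change of -0.59 did not pass (SE 0.18, adjusted p = 0.183), but did with the muscle list mean as a covariate (-0.62, adjusted p = 0.0313). Mnat1, a part of the kinase that activates other CDKs, was at 0.10 (adjusted p = 0.578), and Cdk2, the partner of cyclins E and A, at -0.14 (adjusted p = 0.589).

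The other CDK inhibitors had higher means with E7386 in 4 of 4 genes, or 3 of 4 with the probes of each gene averaged, where 48% of all genes had lower means. None passed the test, with 0 called by limma and 1 of 4 at an unadjusted p under 0.05, beside 15.2% of all genes. Cdkn2a, which encodes p16 and the p53 activator ARF, was at -1.11, -1.25, -0.90 and -0.25 on E7386 arrays 1 to 4 and at -1.72, -1.45, -2.0 and -1.89 on vehicle arrays 1 to 4. The groups did not overlap, E7386 replicate 4 stood highest, and the change was 0.89 (SE 0.22, adjusted p = 0.118). Cdkn1a, which encodes p21, was at 0.16 (adjusted p = 0.483), and at -0.08 with all of its probes averaged. Cdkn2d, which encodes p19 of the INK4 class, was at 0.14 (adjusted p = 0.567). The median of the list was 0.15, beside 0.0088 for all genes.

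Among E2F factors, their partners and Rbl2, 1 of 11 rose and 0 fell by limma, beside 0.753% and 0.367% of all genes. At an unadjusted p under 0.05 there were 4 of the 11, beside 15.2% of all genes, and 7 of the 11 had lower means, beside 48%. Tfdp2, which encodes a DP partner that E2F factors need to bind DNA, was at 0.51, 0.51, 0.81 and 0.74 on E7386 arrays 1 to 4 and at 0.04, 0.03, 0.07 and 0.15 on vehicle arrays 1 to 4. All E7386 arrays lay above all vehicle arrays, with a change of 0.57 (SE 0.09, limma adjusted p = 0.0328). The call was lost with all probes of the gene averaged (0.36, adjusted p = 0.122), with no filter on dim probes (adjusted p = 0.0714), with the slide column as a block (0.0959) and with the 3 arrays of low muscle signal left out (0.0921). When 1 array was left out it held only without E7386 replicate 1 (adjusted p = 0.0473) and ran from 0.0538 to 0.102 otherwise. E2f1, an activator whose gene is switched on by E2F itself, was at -1.09, -1.48, -1.65 and -1.94 on E7386 arrays 1 to 4 and at -0.83, -0.68, -0.68 and -0.89 on vehicle arrays 1 to 4. Its groups did not overlap either, and the change of -0.77 missed the threshold (SE 0.17, adjusted p = 0.0857). It passed with the muscle covariate (-0.79, adjusted p = 0.0490) and without E7386 replicate 1 (-0.92, adjusted p = 0.0302). Rbl2, which encodes the pocket protein p130 of resting cells, was at 0.32 (adjusted p = 0.302).

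Genes for turnover and activation of the G1 machinery had 9 of 10 members tested, and 0 rose and 0 fell by limma. Of the 9, 2 had an unadjusted p under 0.05, beside 15.2% of all genes, and 7 had lower means, beside 48%. Cdc25a, the phosphatase that activates Cdk2, was at -0.31 (SE 0.10, adjusted p = 0.204, and 0.0452 with the muscle covariate) and Skp1, a subunit of the ligase that marks p27 for destruction, at -0.18 (adjusted p = 0.309). Both were lower on every E7386 array, as were 5.7% of all genes. Cks1b, which helps that ligase to bind p27, was at -0.28 (adjusted p = 0.36). In the DREAM complex, which represses cell cycle genes in resting cells, and its successors, 0 of 7 passed by limma. Of the 7, 1 had an unadjusted p under 0.05, beside 15.2% of all genes, and 2 had lower means, beside 48%. Lin52, a core subunit, was at 0.33 (SE 0.10, adjusted p = 0.161) and higher on every E7386 array, as were 4.82% of all genes. Rbbp4, another subunit, was at -0.19 (adjusted p = 0.382) and Mybl2, a later activator, at -0.23 (adjusted p = 0.599). With all probes of each gene averaged, Rbbp4 was at -0.03 and Mybl2 at -0.05.

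E2F target genes of DNA replication had lower means with E7386 in 17 of 18 genes, beside 48% of all genes, and 2 passed the test as lower, beside 0.367% of all genes. At an unadjusted p under 0.05 there were 11 of the 18, beside 15.2% of all genes. The signal of Mcm2, part of the helicase that opens DNA for copying, fell by 0.72 on the log2 scale (limma adjusted p = 0.0395) and that of Cdc6, which helps to load it, fell by 0.74 (adjusted p = 0.0412), while Mcm5 was at -0.66 (adjusted p = 0.0838, and 0.0182 with the muscle covariate and 0.0231 without E7386 replicate 1). In 7 of the 18 the groups did not overlap, all of them lower, beside 5.7% of all genes. The median change of the list was -0.38. Since the list was chosen with earlier results of these data known, the shares beside it are a description and not a test. With 1 array left out, Mcm2 kept its call only without E7386 replicate 1 (adjusted p = 0.0142, otherwise 0.0801 to 0.134), and Cdc6 kept it in 0 of 8 (0.0514 to 0.129). Both calls were lost with no filter on dim probes (adjusted p = 0.0824 for Mcm2 and 0.0845 for Cdc6) and with the slide column as a block (0.0960 and 0.116). Cdc6 was at -0.33 with normexp on median signals (adjusted p = 0.0544) and at -0.70 with its probes averaged (adjusted p = 0.0776). With the muscle list mean as a covariate, 6 of the 18 fell, in a fit that called 274 of 25352 genes lower, against 93 in the main fit. With the 3 arrays of low muscle signal left out, 0 of the 18 were called by limma, in a fit that called 67 of 24925 genes. There 13 had an unadjusted p under 0.05, and the share of all genes at that p was not counted in this fit. Of 9 mitosis markers 0 passed (limma, 0 also at an unadjusted p under 0.05). Their means were also mostly lower with E7386, in 8 of 9, with a median of -0.08. Bub1 was at -0.28 and Top2a at -0.21. Aurkb, well above background on 1 of 4 E7386 and 3 of 4 vehicle arrays, was at 0.26.

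**Figure D4:**
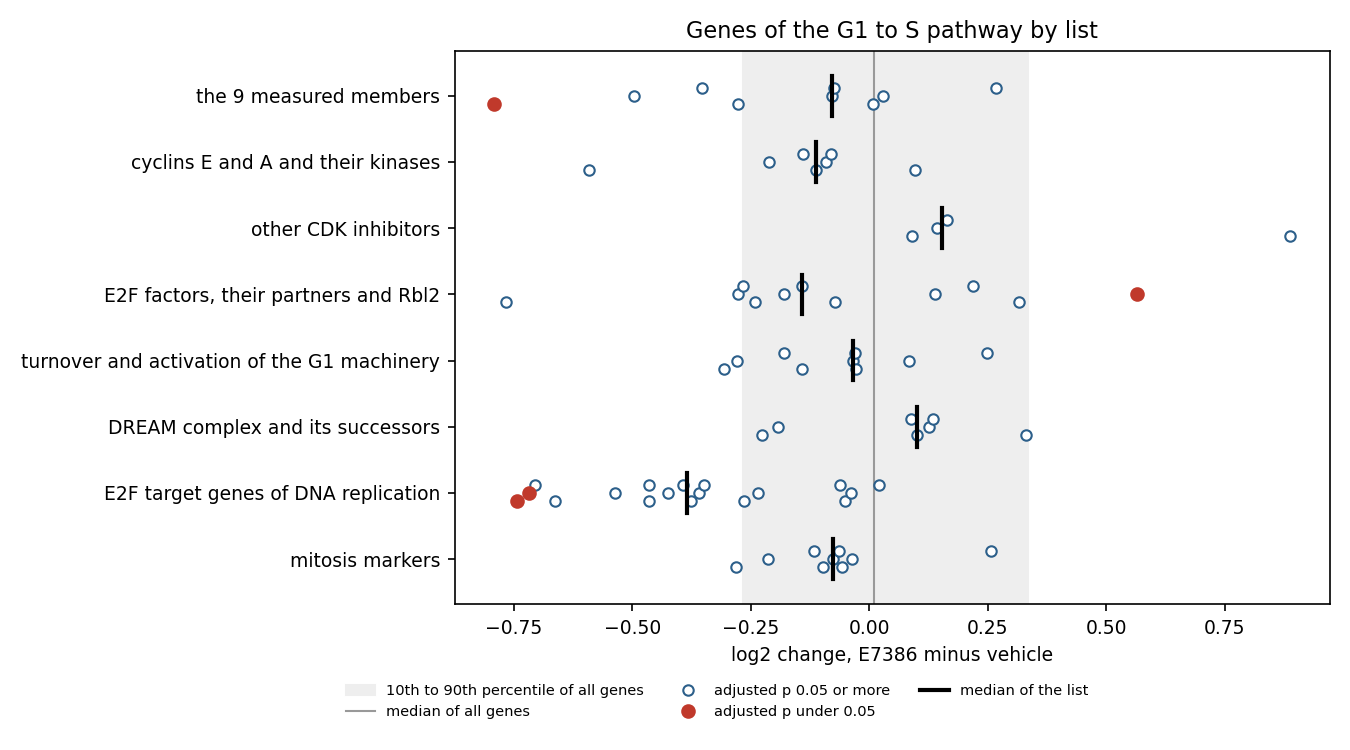
Log2 change, E7386 minus vehicle, of each tested gene of the members and of 7 lists, with the list median as a black bar and the bulk of all genes, from -0.27 to 0.33, as a grey band. Filled points passed the test over all genes: Ccnd1, Tfdp2, Mcm2 and Cdc6; the replication list has the lowest median, at -0.38.

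The 5 genes whose signals ran most like those of Ccnd1 over the 8 arrays were taken by Pearson r among 15400 genes with a symbol. They were Sec23b (r = 0.995), a coat protein of transport vesicles, Ear1 (0.995), a ribonuclease of eosinophils, Slc35a4 (0.991), Tubg1 (0.991), the gamma-tubulin of centrosomes, and Rspo2 (0.991), a secreted amplifier of Wnt signals. A high r over these arrays contains the difference between the groups, and all arrays share the scaling. Of the 5, Ear1 and Rspo2 passed the test as lower, beside 0.367% of all genes. Since the 5 were chosen by an r that contains the group difference, these calls are a description and not a test. Ear1 fell by 1.12 on the log2 scale (SE 0.16, limma adjusted p = 0.0195), to -1.41 ± 0.28 with E7386 against -0.29 ± 0.19 with vehicle (SD, n = 4 each). Without 1 array its adjusted p exceeded the threshold for vehicle replicates 1 and 2 (0.0508 and 0.0619) and E7386 replicates 2 and 4 (0.0509 and 0.075), as it did with the 3 arrays of low muscle signal left out (0.0559). Sec23b was at -0.30 (adjusted p = 0.111), Slc35a4 at -0.12 (adjusted p = 0.392) and Tubg1 at -0.41 (adjusted p = 0.072), none past the threshold. With the muscle covariate Sec23b and Tubg1 passed (adjusted p = 0.0460 and 0.0201), and Tubg1 also with trend and robust variance (0.0404) and with normexp (0.0432). For Rspo2, 0 of 4 E7386 arrays and 4 of 4 vehicle arrays were well above background. It entered the test through the vehicle arrays alone, so its r and its call rest in part on signals at background. Its call was kept in 2 of 8 fits without 1 array and lost in 8 of 20 alternatives. Over these 20 its change ran from -2.91 to -0.34.

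**Figure D5:**
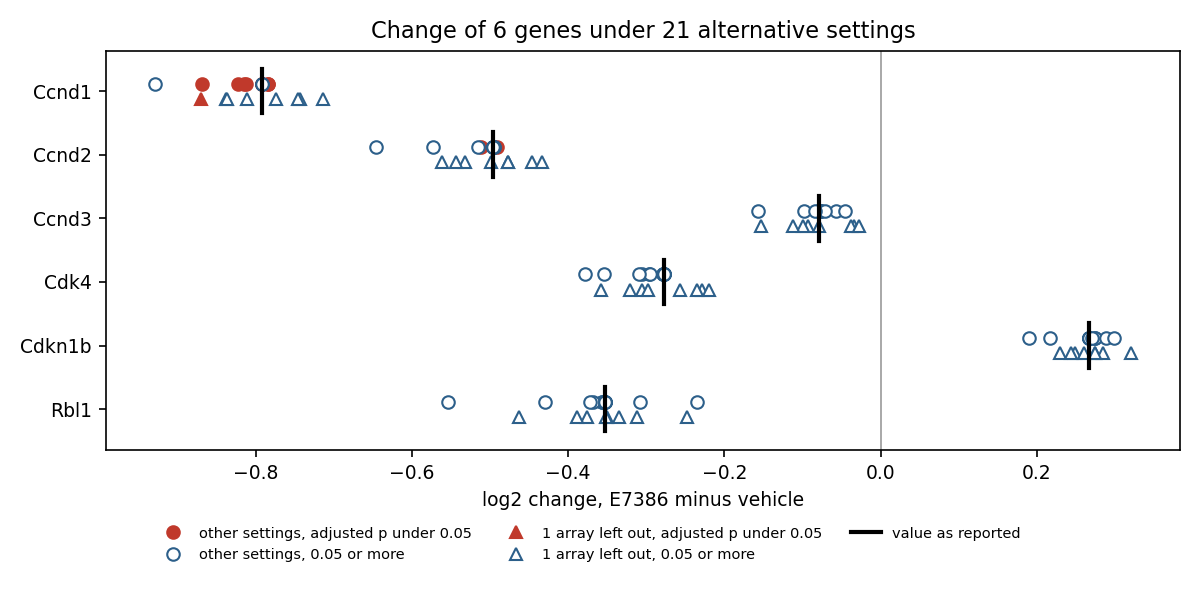
Log2 change, E7386 minus vehicle, of 6 members under 21 alternative settings, as circles for other settings and triangles for fits without 1 array, filled where the adjusted p was under 0.05, with the reported value as a black bar. None of the 6 changed sign, Ccnd1 stayed between -0.93 and -0.71, and Ccnd3, Cdk4, Cdkn1b and Rbl1 passed under none of the settings.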

How the data were processed

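Total RNA from whisker follicles was measured in 8 samples, with 50 ng of RNA labelled with Cy3 for each 1-colour Agilent array, per the labels' protocols. The scanner files deposited by the authors hold spot intensity values made with Feature Extraction 11.5.1.1 on a design built on mm9, per the file headers, and version 11 is given in the submitters' processing notes. The processed signal is background-corrected by that program. The authors' deposited value table is on a log2 scale, with the same sorted values in every column, a median of 5.31 and nearly the same order as the scanner signals, so it is quantile normalised and not centred per gene.

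Spots marked as non-uniform were set to missing (none belong to the 10 genes), spots of a probe were averaged as log2 signals, and the 75th percentile over 55681 probes, 397.3 to 569.1 between arrays, was subtracted. RefSeq of GRCm38.p6 named 27509 probes. The brightest probe of each gene was tested if well above background on at least 3 of 4 arrays of a group, using limma 3.58.1 (lmFit, then eBayes; R 4.3.3) and Benjamini-Hochberg adjustment at 0.05. Precision is limited by the 8 arrays. Changes are E7386 minus vehicle, and intervals are at 95%. Differences between D cyclins were tested by exact permutation over arrays, with intervals that assume normal values and a shared SD. Named genes are the 10 members, from each list those past the threshold and the 3 with the smallest p, and the 5 most like Ccnd1. Members and lists were chosen with earlier results of these data known. Skp2 has no probe under that symbol, and Ccne2 and Ccna1 did not pass the filter. Replicate numbers, which equal the slide column, were not taken as pairs: the correlations of deviations for the same number were 0.49, -0.17, 0.29 and 0.18, so 3 of 4 were positive and 1 was not, and fits with that block are given as alternatives.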

Additional observations from a re-analysis of the deposited data

How the results depend on the processing

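The count of 284 called genes moved to 153 with no filter on dim probes, 59 with the replicate block, 596 with the muscle list mean as a covariate and 67 with the 3 arrays of low muscle signal left out (chosen after seeing the data), and to 93 to 246 when 1 array was left out. Ccnd1 kept its direction in 21 of 21 alternatives and lost its call in 10: with no filter on dim probes (-0.79, limma adjusted p = 0.0633), with the replicate block (-0.79, 0.0593), without those 3 arrays (-0.93, 0.0653) and in 7 of 8 fits without 1 array (-0.87 to -0.71 over all 8). Ccnd2 gained a call with the trend and robust variance model (-0.50), the muscle covariate (-0.51) and normexp on median signals (-0.49, chosen after seeing the data), and without 1 array lay between -0.56 and -0.43. The Ccnd2 minus Ccnd1 and Ccnd3 minus Ccnd1 differences were 0.30 and 0.71 with the replicate block (exact p = 0.125, the lowest possible with 4 pairs) and 0.28 and 0.88 without those 3 arrays (exact p = 0.1, the lowest possible with 2 against 3), and 0.27 to 0.33 and 0.60 to 0.84 without 1 array. The sign turned for Cdkn2c with array medians (-0.070), normexp (-0.0028) and without those 3 arrays (-0.056), and with 1 array left out it lay between -0.032 and 0.048. It turned for Rb1 with array medians (-0.048), for Cdkn1a with probes averaged (-0.083), and with 1 array left out for Rb1 (-0.037 to 0.072), Cdkn1c (-0.20 to 0.021) and Aurkb (-0.050 to 0.38). None of these 5 genes passed the test in any setting. The causes were not tested. The replicate numbers, which equal the slide column, were not taken as pairs, 1 of 4 E7386 arrays correlated best with its own number, and the block also ended the calls of Tfdp2, Mcm2 and Cdc6. Normexp on mean signals was not run, since the scanner files used here give median signals.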
